A study of Mus musculus with 6 samples.

Results

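Taste buds are renewed throughout life, and the identity of their cells is set by transcription factors. The 7 genes Trp63, Sox2, Hes6, Prox1, Eya1, Pou2f3 and Nkx2-2 encode such factors, and they were taken by name from the 23361 genes of the deposited RNA-sequencing table. All 7 were found there, and all 7 reached a mean of 1 FPKM over the ages, a level reached by 12652 genes. FPKM counts the fragments mapped to a gene and scales them by transcript length and by library size. Taste cells were collected from the circumvallate (CV) and foliate (Fol) papillae of C57BL/6 mice, an inbred strain, at 2 and 6 months of age, with no genetic change or treatment in either group. Each library was made from taste cells of several mice, 4 mice per pool at 2 months and 3 mice per pool at 6 months, and there were 3 libraries per age. The design text of the series gives the younger age as 3 months, whereas the sample labels give 2 months. The sex of the mice is not given in the sources used here.

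The deposited table holds 1 FPKM value per gene and age, an estimate over the 3 libraries of each age. The spread between pools cannot be read from these values, so neither an SD nor a test is given for any gene, and whether a difference is larger than the replicate error was not tested. The depth of each library is unknown, since FPKM does not carry it. Because the cells were measured in bulk, a lower value can mean fewer cells of a type or less RNA per cell, and these cannot be told apart.

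By way of background, p63, the product of Trp63, maintains the basal layer of stratified epithelia, from which taste bud cells arise. Sox2 is a high mobility group box factor needed for the formation and upkeep of taste buds. Hes6 is a basic helix-loop-helix protein related to the Notch effector Hes1. Prox1 is a homeobox factor found in taste buds and in lymphatic endothelium, and Eya1 is a transcriptional coactivator. Within the bud, type I cells are glia-like, type II cells detect sweet, umami or bitter compounds, and type III cells respond to sour compounds and form synapses. Pou2f3, also known as Skn-1a, is required for type II cells, and Nkx2-2 is a homeobox factor expressed in type III cells.

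The genes lie on 5 chromosomes of GRCm38, by GENCODE annotation. Sox2 is on chromosome 3 from 34650405 to 34652461 and has 1 exon. Trp63 is on chromosome 16 from 25683763 to 25892102, with 14 exons in its longest coding transcript and 8 coding transcripts. The table gives no separate value for the forms of p63. Hes6 (91411483 to 91414038), Prox1 (190118035 to 190170714) and Eya1 (14168954 to 14310235) are all on chromosome 1. Pou2f3 is on chromosome 9 from 43123939 to 43210369, and Nkx2-2 is on chromosome 2 from 147177546 to 147194243. Spans range from 2057 bases for Sox2 to 208340 bases for Trp63.

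Some of these genes overlap others. Sox2 lies inside an intron of the non-coding gene Sox2ot on the same strand, and the exons of the 2 genes share 0 bases. Sox2ot was at 3.87 and 3.61 FPKM in 2 and 6 month taste cells, far under Sox2. Antisense transcripts share 278 exon bases with Nkx2-2 (Nkx2-2os) and 133 with Prox1 (Prox1os). Use of strand in the counting is not given in the sources used here, so reads of these antisense partners cannot be told apart from those of Nkx2-2 and Prox1, the least abundant of the 7 factors.

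The bases before the transcription start of Sox2 and Hes6, the highest and the third highest of the 7 factors, are shown because SOX proteins bind a short core that can be looked for there. RefSeq windows were available for Sox2, Hes6, Prox1 and Nkx2-2, with 6 start sites in all. Each sequence gives the 250 bases before a start on GRCm38.p6, 5′ to 3′ on the strand of the gene, with the core ACAAAG or its reverse complement in capitals. The window of Sox2 is chr3:34649745-34649994 on the plus strand, and its start lies upstream of the GENCODE start. Those of Hes6 are on the minus strand at chr1:91414039-91414288, which ends next to the annotated gene start, and at chr1:91413223-91413472, which lies inside the gene in no annotated exon.
Sox2: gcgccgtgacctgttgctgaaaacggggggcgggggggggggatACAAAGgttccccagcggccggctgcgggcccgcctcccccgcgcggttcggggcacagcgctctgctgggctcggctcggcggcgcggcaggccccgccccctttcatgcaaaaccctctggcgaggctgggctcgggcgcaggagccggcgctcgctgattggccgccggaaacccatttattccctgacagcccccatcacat
Hes6, outer start: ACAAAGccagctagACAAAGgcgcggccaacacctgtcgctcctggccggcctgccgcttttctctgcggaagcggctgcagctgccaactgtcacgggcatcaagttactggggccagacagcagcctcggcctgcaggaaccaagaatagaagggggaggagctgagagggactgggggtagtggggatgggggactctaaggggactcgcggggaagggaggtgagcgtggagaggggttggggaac
Hes6, inner start: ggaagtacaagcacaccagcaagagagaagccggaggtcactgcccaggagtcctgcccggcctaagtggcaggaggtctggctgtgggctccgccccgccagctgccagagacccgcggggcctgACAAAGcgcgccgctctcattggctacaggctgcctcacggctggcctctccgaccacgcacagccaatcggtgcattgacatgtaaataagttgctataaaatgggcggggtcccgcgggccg

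The core stood in 4 of the 6 windows (66.7%), which belong to 3 of the 4 genes. Positions are counted from the transcription start. They were -206 for Sox2, -250 and -236 before the outer and -124 before the inner start of Hes6, and -174 in 1 of the Prox1 windows. This Prox1 window and the only Nkx2-2 window lie inside their genes, with 118 and 53 bases in annotated exons. Among all 32851 RefSeq windows of the same length, 16.5% held the core on either strand. The 6 windows are too few to set against that share, and the core was picked after several motifs had been searched. The windows of the 4 genes had a G and C content of 56.0% to 72.0%, against a median of 52.4% over all windows. The E-box CANNTG, bound by basic helix-loop-helix factors, stood in 4 of the 6 windows and in 66.2% of all. The AP-1 letters TGANTCA, the octamer ATGCAAAT bound by POU factors and the second SOX core ACAATG were found in 0 of the 6 windows, and in 6.75%, 1.60% and 10.7% of all windows. The other motifs searched were the N-box CACNAG and the TATA letters TATAAA. Each stood in 2 of the 6 windows, against 36.7% and 12.4% of all windows. A match of letters is not a measured binding site, and a missing one says nothing of the factor.

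The levels of the 7 factors fell into an upper and a lower range (FPKM is scaled by transcript length, so levels can be set side by side). Sox2 was the highest, with 146.9 FPKM in 2 month and 133.6 FPKM in 6 month taste cells. Trp63 had 105.8 and 94.1 FPKM, and Hes6 had 80.2 and 71.5 FPKM. These 3 genes were above at least 90.7% of the expressed genes at either age, and Sox2 ranked 595 of 12652 at 2 months and 621 at 6 months. Pou2f3 and Nkx2-2, named above with type II and type III cells, stood below all 3, as did Prox1 and Eya1. Which cells of the bulk samples gave these levels was not tested.

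Pou2f3 took the middle place with 16.3 and 15.9 FPKM. That is above the median of expressed genes, which was 11.8 and 11.7 FPKM. Eya1 was at 6.36 and 5.34 FPKM, Nkx2-2 at 4.19 and 3.90 FPKM and Prox1 at 2.99 and 2.89 FPKM. The last 3 were above 32.4%, 22.8% and 16.6% of expressed genes at 2 months.

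The order of the 7 levels was the same at both ages. The widest step was that from Hes6 to Pou2f3, a ratio of 4.93 at 2 months and 4.48 at 6 months. Pou2f3 exceeded Eya1 by a ratio of 2.56 and 2.99, and the other steps between neighbours were ratios of 1.32 to 1.52. Each of these steps is larger than the gap between the ages for any of the genes, but without values per library it is not known which neighbours differ beyond their spread. From Prox1 to Sox2 the levels spanned a ratio of 49.2 at 2 months and 46.2 at 6 months.

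**Figure D1:**
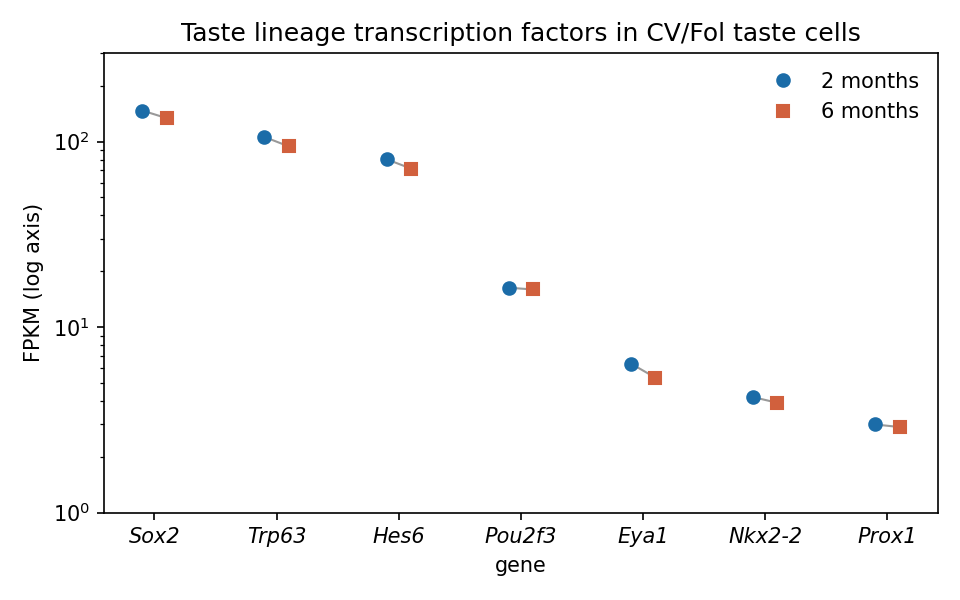
FPKM of the 7 factors (log axis) in 2 month (circles) and 6 month (squares) taste cells, 1 value per age as estimated by the authors over 3 libraries, with no error bars because values per library were not used. The genes keep 1 order at both ages, from Sox2 (146.9 and 133.6 FPKM) down to Prox1 (2.99 and 2.89 FPKM), and in these values as deposited every square sits slightly under its circle.

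The comparison between the ages asks whether these factors differ in the cells of older mice. Changes are given as differences of log2(FPKM + 1), with the 2 month value subtracted from the 6 month value, a scale that understates the change of weakly expressed genes. All 7 factors had a lower value at 6 months in the FPKM as deposited (5 of 7 under another scaling, given with Pou2f3 and Prox1), and all 7 differences were small. None was past 1.5-fold (0 of the 7), and of the 12652 expressed genes only 2.77% were. Without small RNA genes and genes listed at 0 in either age, a background set after the data had been seen, that share was 1.60%. Differences of at least 20% downward or 25% upward on this scale were also seen in 0 of the 7, and in 7.18% of the 12652 genes. With shares this low, a count of 0 among 7 genes does not set the factors apart from other expressed genes. A lower value of any size was the case for 53.7% of expressed genes. The median log2 change was -0.14 for the 7 factors and -0.01 for all expressed genes.

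Eya1 had the largest change of the 7, a log2 change of -0.21, with a level 16.0% lower at 6 months on the FPKM scale. Of the expressed genes, 9.51% had a more negative change, and 15.9% a change at least as large in either direction. Trp63 and Hes6 followed with log2 changes of -0.17 and -0.16, levels 11.1% and 10.9% lower. Sox2 had a log2 change of -0.14, a level 9.02% lower. The sizes depended on the scaling. With the ages brought to the same sum without small RNA genes, the log2 changes were -0.13 for Eya1, -0.072 for Trp63, -0.069 for Hes6 and -0.039 for Sox2. In the FPKM as deposited, these 4 lay outside the middle range of expressed genes, whose quartiles of the log2 change were -0.10 and 0.08.

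The other 3 lay within those quartiles. Nkx2-2, the type III cell factor, had a log2 change of -0.08, and Prox1 one of -0.03. Pou2f3, on which type II cells depend, had the smallest change of the 7 in the FPKM as deposited, with a log2 change of -0.03 and a level 2.17% lower. A change at least that large was seen for 82.3% of expressed genes. The direction for Pou2f3 and Prox1 depended on the scaling: with the ages brought to the same sum without small RNA genes, their log2 changes were 0.06 and 0.04, that of Nkx2-2 was -0.0046, now the smallest, and 5 of the 7 factors were lower.

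**Figure D2:**
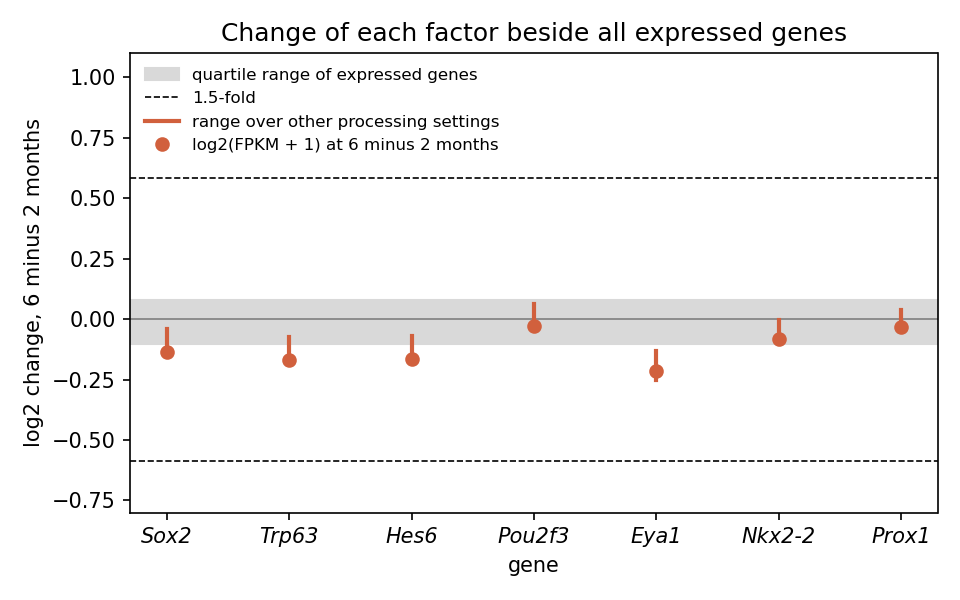
Log2 change of each factor, 6 minus 2 months, on the log2(FPKM + 1) scale (points), with vertical lines spanning the values under 6 other processing settings. The grey band runs from -0.10 to 0.08, the quartiles over 12652 expressed genes, and dashed lines mark 1.5-fold; Sox2, Trp63, Hes6 and Eya1 sit under the band and 0 factors reach a dashed line.

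Each factor was then placed among its relatives, whose lists were drawn up by family name. Sox2 was the highest of 19 Sox genes at both ages and held 43.1% of their summed FPKM at 2 months and 41.6% at 6 months. Sox15 (70.5 and 66.2 FPKM) and Sox13 (32.3 and 32.9 FPKM) came next. Of the 11 expressed Sox genes, 7 were lower and 0 were past 1.5-fold on the log2(FPKM + 1) scale. Their median log2 change was -0.02, which turned to 0.0038 once upper quartiles were matched and to 0.07 with the same sum without small RNA genes. Sox10, a marker of Schwann cells and glands, had the largest change of the family, from 1.95 to 1.05 FPKM, and was picked out after its value had been seen. These 2 levels differ by more than 1.5-fold. With 1 FPKM added to both, the log2 change of Sox10 was -0.53, short of that threshold.

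Trp63 led the p53 family with 63.3% and 62.7% of its summed FPKM. The tumour suppressor gene Trp53 had 57.3 and 51.9 FPKM, a log2 change of -0.14, close to that of Trp63, while Trp73 had 4.02 and 4.01 FPKM. Pou2f3 held 81.2% of the FPKM of the 3 POU class 2 genes at 2 months and 78.5% at 6 months. Its widely expressed relative Pou2f1 had 2.65 and 3.29 FPKM, and Pou2f2, known from B cells, had 1.11 and 1.08 FPKM. Prox1 made up 86.4% and 84.1% of the FPKM of the 2 Prox genes, since Prox2 was at 0.472 and 0.546 FPKM.

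The remaining 3 factors were not the highest of their families. Hes6 stood just under Hes1, the Notch effector, which had 85.1 and 86.7 FPKM. Hes1 and Hes6 were the only expressed Hes genes of the 6 listed. Nkx2-2 was second to Nkx2-3, which had 19.7 and 19.6 FPKM, and the other 5 Nkx2 genes were under 1 FPKM. Nkx2-2 thus held 17.1% and 16.4% of the FPKM of that family.

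Eya1 was the third of the Eya genes. Eya2 was the highest, with 65.8 and 56.2 FPKM and a log2 change of -0.22, next to the -0.21 of Eya1. Eya3 had 13.6 and 14.6 FPKM, a log2 change of 0.09, and Eya4 was near 0.

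**Figure D3:**
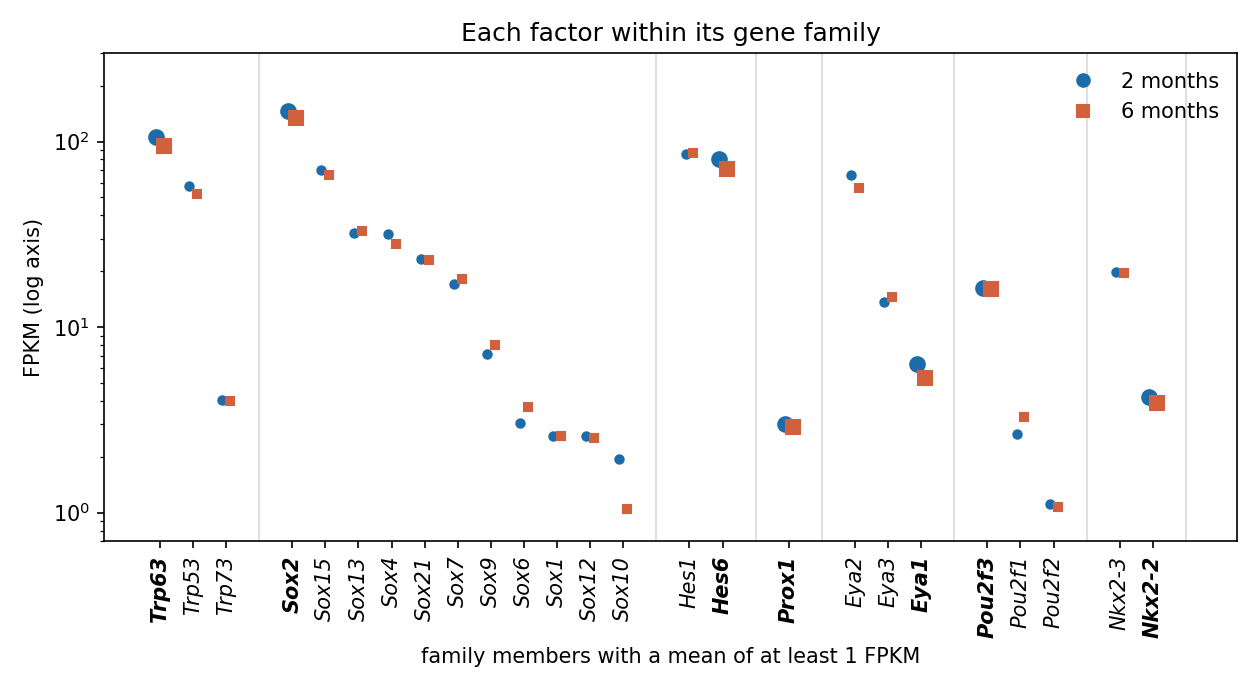
FPKM (log axis) of the expressed genes of each family at 2 months (circles) and 6 months (squares), 1 value per age, grouped by family with the 7 factors as large symbols and bold names. Sox2, Trp63, Pou2f3 and Prox1 lead their families, while Hes6 lies under Hes1, Nkx2-2 under Nkx2-3 and Eya1 under Eya2 and Eya3.

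Among 30 other transcription factors linked to taste bud or epithelial lineages, 25 were expressed (mean of 1 FPKM or more), of which 14 were higher and 11 lower at 6 months, 0 were past 1.5-fold, and the median log2 change was 0.00. The highest were Klf5 (165.1 and 167.8 FPKM), Grhl3 (120.9 and 125.7 FPKM) and Hes1, which regulate epithelial growth and differentiation. Lef1, a Wnt effector, went from 8.06 to 5.40 FPKM, the largest change of the list at -0.50, and Ovol1 from 81.7 to 59.2 FPKM, at -0.46. The choice of Lef1 and Ovol1 from the list was made with their values in view.

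For each of the 7 factors, the gene with the most similar pair of levels was sought among 48 other expressed lineage and family factors, by Euclidean distance in log2(FPKM + 1) over 2 values. Prox1 lay nearest to Six5 (distance 0.038), Nkx2-2 to Trp73 (0.058), Pou2f3 to Foxa1 (0.11), Eya1 to Tcf7 (0.12) and Hes6 to Pax9 (0.13). Sox2 lay nearest to Grhl3 (0.29) and Trp63 to Hes1 (0.33). With 2 values per gene, these distances reflect mainly the level.

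The taste cell types named above with the factors were followed through their markers. For type II cells, 10 of 12 listed markers were in the table, and all 10 were expressed. In 6 month cells 7 were higher and 3 lower, with a median log2 change of 0.11 beside the -0.03 of Pou2f3. Gng13, a G protein subunit, had the highest level, with 148.5 and 125.9 FPKM, followed by gustducin (Gnat3, 84.7 and 79.9 FPKM) and by the phospholipase gene Plcb2 (53.3 and 55.1 FPKM). These 3 were well above Pou2f3. The summed FPKM of the type II markers was 386.0 at 2 months and 374.1 at 6 months.

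In type III cells, 11 of 13 markers were expressed, and 8 of them were higher at 6 months. Their median log2 change was 0.15, and that of Nkx2-2 was -0.08. Pkd1l3, a channel subunit, had 26.2 and 33.5 FPKM, Otop1, the proton channel of sour detection, had 14.4 and 12.2 FPKM, and Pkd2l1 had 12.4 and 14.0 FPKM. For type I cells, 3 of the 4 markers were expressed and 2 were lower, with Entpd2 the highest at 66.1 and 57.7 FPKM. Of all these taste cell markers, 0 were past 1.5-fold.

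Keratins and precursor genes of the bud were lower at 6 months in 7 of 8 cases, and their median log2 change was -0.24. Krt19 had 308.3 and 262.1 FPKM, Krt8 had 234.3 and 196.7 FPKM, and Krt18 had 223.7 and 165.7 FPKM. Among the precursor genes, the log2 changes of Shh and Lgr6 were -0.18 and -0.14, and that of Lgr5, the only higher gene of the list, was 0.02. Sox2 (-0.14) and Hes6 (-0.16) were also lower, with changes smaller than the list median of -0.24.

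Markers of the basal epithelium, the compartment of p63, were mixed in direction. Of 12, all expressed, 8 were higher and 4, like Trp63, lower, and the median log2 change was 0.13. Krt14 had 1287 and 1533 FPKM, whereas Krt5 had 2180 and 1962 FPKM and Perp had 1465 and 1393 FPKM. The summed FPKM of the list was 6176 at 2 months and 6110 at 6 months.

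**Figure D4:**
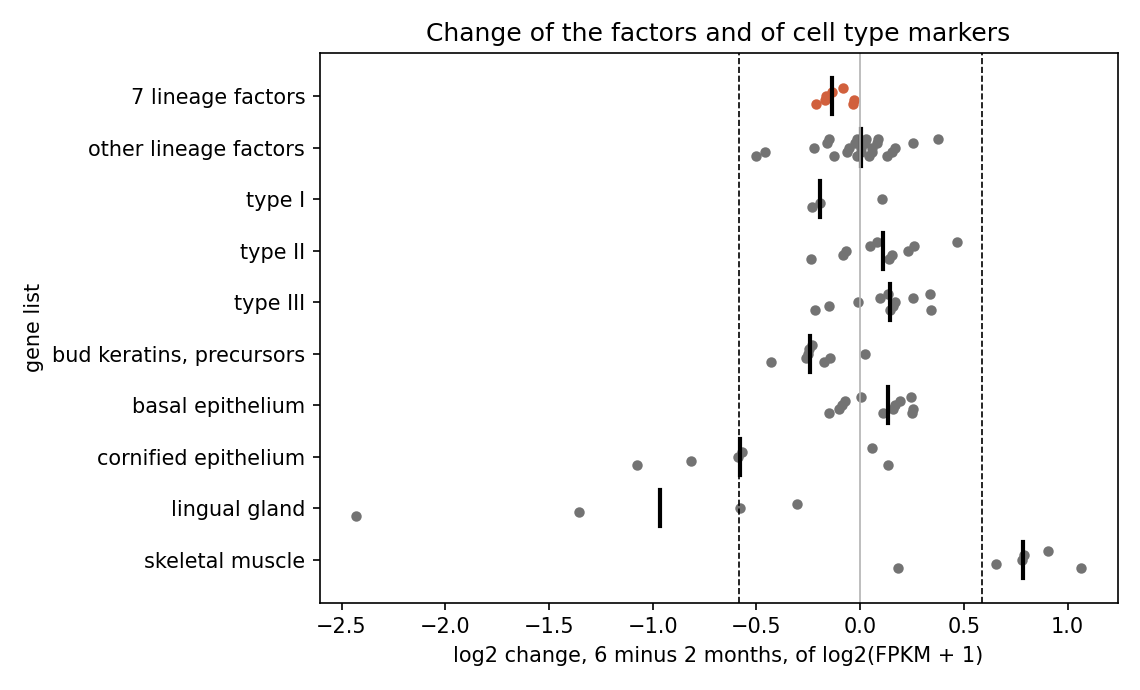
Log2 change, 6 minus 2 months, of each expressed gene (points) on the log2(FPKM + 1) scale for the 7 factors and for lists of other factors and cell type markers; black bars are medians, dashed lines mark 1.5-fold, and genes listed at 0 in 1 age are left out. The 7 factors lie between -0.21 and -0.03, while single genes of the cornified epithelium, lingual gland and muscle lists lie outside the dashed lines.

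Markers of other cells were looked at because, as background, Sox2 and Trp63 are also expressed in epithelium around the buds, Prox1 in lymphatic endothelium and Prox1 and Eya1 in muscle. Of the cornified epithelium markers, 9 of 10 were in the table, and 3 (Krt10, Lor and Ivl) were lower by over 1.5-fold. The list was mixed in direction. Among the expressed markers with values above 0 at both ages, 4 were lower and 2 higher. The higher ones were Tgm3 (827.6 and 859.8 FPKM) and Dsg1a (68.9 and 75.6 FPKM). Krt4 was at 7334 FPKM at 2 months and listed at 0 at 6 months, Krt6a was listed at 0 at 2 months and at 3391 FPKM at 6 months, and Krt13 was listed at 0 in both. Such values can be failed estimates, so no fold is given for them and the summed level of this list, 9745 and 5179 FPKM, rests on them.

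Of 9 lingual gland markers 4 were expressed, all lower at 6 months. Lipf, a lipase of the lingual glands, went from 83.7 to 14.7 FPKM and Bpifb1 from 28.6 to 10.6 FPKM, both past 1.5-fold, and the summed level went from 142.7 to 47.3 FPKM. Skeletal muscle markers had the opposite direction, with 6 of 10 expressed, all 6 higher and 5 past 1.5-fold (Tnnc2, Mb, Acta1, Tnnt3 and Ckm), but their summed level was only 10.6 and 22.4 FPKM.

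Of the other marker lists, fibroblast genes summed to 43.6 and 28.7 FPKM, of which the proteoglycan gene Dcn held 42.0 and 27.3 FPKM, a difference past 1.5-fold. Blood and lymphatic endothelium genes summed to 29.6 and 21.2 FPKM, of which Pdpn, which basal epithelium also expresses, held 29.2 and 20.8 FPKM. The defining lymphatic markers Lyve1 and Flt4, singled out with their values in view, were under 0.05 FPKM at both ages. Schwann cell and nerve genes summed to 65.4 and 66.8 FPKM, led by Erbb3, and leukocyte genes to 117.9 and 117.8 FPKM, led by Cd74. The part of these cells in the values of the 7 factors was not tested.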

How the data were processed

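RNA was sequenced from pooled CV/Fol taste cells, 3 libraries per age. Reads were mapped by the authors to GRCm38/mm10 using TopHat2 2.0.7 and RefSeq annotation, and quantified genes with Cufflinks 2.1.1 and Cuffdiff. They deposited 1 FPKM value per gene and age, estimated over the libraries of that age. The column headed B was taken as 6 months and S as 2 months, from the sample titles. A p-value column of the authors' own comparison was not used. The design for tables with 1 value per age was followed, so no test was run.

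Log2 changes used a pseudocount of 1 FPKM, genes with a mean of 1 FPKM or more counted as expressed, and 1.5-fold was the threshold of size. The 7 genes and 20 gene lists were chosen with earlier results of these data known. Genes named are the 7 factors, the 3 highest of a list and those past 1.5-fold, and others were chosen with their values in view. Some lists are given in sums alone, and a few listed genes are not reported here. Positions came from GENCODE M21, promoters from RefSeq. The calculation of change and fold was tested on simulated data with 200 changed genes. Alternatives were other pseudocounts, filters, folds and scalings. The software was pandas 2.3.3 and numpy 2.4.6 in Python 3.11.15, with matplotlib 3.10.9 for plots.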

Additional observations from a re-analysis of the deposited data

How the results depend on the processing

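No paired analysis was possible because single libraries have no values in the table, and for the same reason no replicate was left out. Of 226 recomputed values, 215 stayed within 0.1 on the log2 scale or, for counts and shares, within 1.5 times. That tolerance is larger than the whole change of Pou2f3, Prox1 or Nkx2-2, so it cannot show that the changes of the factors are stable. Sox2 stayed within it while going from -0.14 to -0.039 with the same sum without small RNA genes. No scaling tried could carry a log2 change past the tolerance, since the largest multiplied the 6 month values by only 1.07. The count of 215 thus cannot show that log2 changes or list medians are stable to scaling. Under that same sum, the median went from -0.03 to 0.06 for the POU class 2 list and from -0.07 to 0.03 for the Hes list. That of the p53 list stayed negative, at -0.14 and -0.045. The number of factors past 1.5-fold stayed at 0 under every setting tried, with thresholds of 20% downward or 25% upward, or of 2-fold, too. All 7 were lower at 6 months except when both ages were scaled to the same sum without small RNA genes (5 of 7, with Pou2f3 at 0.06 and Prox1 at 0.04). Leaving out also the genes listed at 0 in either age, a setting chosen after the data had been seen, gave 5 of 7 again. Nkx2-2 then had a log2 change of -0.01.

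The share of expressed genes past the threshold was 7.18% for differences of 20% downward or 25% upward and 1.60% at 2-fold, and 1.60% at 1.5-fold without small RNA genes and genes listed at 0 in either age, also set afterwards. With no filter on level, the median log2 change moved from -0.19 to -0.043 for type I markers, from -0.97 to -0.32 for lingual gland, from -0.32 to -0.085 for fibroblast and from -0.47 to -0.0024 for endothelium markers. With 5 FPKM as the lowest mean it went from -0.32 to -0.60 for fibroblast markers and from 0.02 to -0.20, a change of sign, for leukocyte markers. The median of skeletal muscle markers went from 0.78 to 1.03 with a pseudocount of 0.1 FPKM and to 1.07 with none. These settings change the threshold, add or remove genes, or weigh low values more. Depth and the spread between pools are unknown and limit every value.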
